A study of Mus musculus with 9 samples.

Results

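A set of 8 genes, out of 41128 in the deposited tables, marks or specifies the deep-layer projection neurons of the cerebral cortex: Fezf2, Bcl11b, Tbr1, Foxp2, Tle4, Ldb2, Etv1 and Crym. They were taken by name as identity genes of cortical layers 5 and 6 and matched by symbol to 1 Ensembl gene each, and all 8 passed the filter on low counts. Their RNA was measured by sequencing in the dorsal telencephalon of newborn mice of strain B6:129SF2/J, in 9 libraries: 3 labelled wildtype (WT), another 3 as TCF4 heterozygote (Het below) and the last 3 as TCF4 knockout (KO below). Tcf4 is a class I basic helix-loop-helix factor that binds DNA at E-boxes. The Tcf4 allele, the part of the gene that it removes, and whether each library came from its own pup are not given in the sources used here. P-values therefore measure the spread between these samples, which may be technical.

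Neurons of the deep layers are born first in the cortex and send their axons out of it, those of layer 5 to the brainstem and spinal cord and those of layer 6 to the thalamus. Fezf2 is a zinc finger repressor that specifies subcerebral neurons, Bcl11b (also called Ctip2) acts downstream of it in the growth of their axons, and Tbr1 is a T-box factor that specifies corticothalamic neurons and holds the subcerebral programme down. Tle4 is a corepressor of the Groucho family found in layer 6, Foxp2 a forkhead repressor of layer 6, Ldb2 a cofactor of LIM-domain proteins, Etv1 (also called Er81) an ETS factor of layer 5, and Crym a thyroid hormone binding protein of corticospinal neurons. Several of them are not specific to cortex: Bcl11b and Foxp2 are also expressed strongly in striatal neurons, which lie beneath the cortex.

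Total counts ran from 22291940 to 29445788 per library, and the members had between 238 counts (Foxp2 in KO replicate 1) and 8367 counts (Bcl11b in WT replicate 1). Tcf4 itself was counted at 712, 728 and 584 CPM (counts scaled to a common library size with TMM factors) in WT, 822, 652 and 719 in Het and 638, 633 and 611 in KO, so its gene-level count did not follow the labels (KO against WT log2 fold change -0.10, SE 0.09, edgeR adjusted p = 0.36). Genotypes and directions below rest on the labels. The tissue was checked on 8 projection neuron genes (Neurod2, Neurod6, Emx1, Nrn1, Nfix, Mef2c, Bhlhe22 and Sstr2), which summed to 2918 to 3349 CPM in WT, 3910 to 4345 in Het and 4158 to 4429 in KO. Other neuronal lists did not all rise. Of 10 pan-neuronal markers, 1 was higher and 5 lower in KO than WT. Their sum was 9659 to 10156 CPM in WT, 9234 to 9783 in Het and 9122 to 9449 in KO. Of 6 dorsal telencephalon and projection neuron markers, 5 were higher in KO and 1, Slc17a7, was lower. KO replicate 3 differed in sex from the rest, with 2730 counts of Xist against at most 3.

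The promoters of 4 members are shown with any E-box, the word CANNTG read by basic helix-loop-helix factors: Fezf2 and Tle4, which were higher in the mutants, Bcl11b, which was lower, and Tbr1, which was not called. RefSeq promoters (GRCm38.p6, the same assembly as mm10) were found for Fezf2, Bcl11b, Tbr1, Tle4 and Etv1. The search covered the 250 bases before each start. CANNTG is its own reverse complement, so 1 search covers both strands, and CAGGTG, printed below, is 1 of its forms. Of 32851 promoter windows of that length in the table, 66.2% held at least 1 CANNTG and 17.2% held CAGGTG or its reverse complement. The Fezf2 window (chr14:12345866-12346115, minus strand) and the Bcl11b window (chr12:108003415-108003664, minus strand) held none, and the Tbr1 window (chr2:61804203-61804452, plus strand) held 1, a CAGGTG that begins 46 bases before the start. The upstream Tle4 window (chr19:14598184-14598433, minus strand) held 2, at 210 and 169 bases before the start, and a second Tle4 window held none. For both Tle4 windows the bases just after the start were not found in a GENCODE transcript of Tle4, while those of the other genes searched were found in theirs. The upstream window also lies wholly outside the GENCODE gene, whose highest coordinate is 14598051. Of the Etv1 windows, not printed, 1 held none and the other 3. The Tbr1 window lies in an exon of a non-coding Tbr1 transcript in GENCODE. Each sequence is given 5′ to 3′ with any E-box in capitals, and bases that GENCODE M21 places in an exon of a coding transcript are left off, which leaves 156 bases for Fezf2 (chr14:12345960-12346115) and 62 for Bcl11b (chr12:108003603-108003664).
Fezf2: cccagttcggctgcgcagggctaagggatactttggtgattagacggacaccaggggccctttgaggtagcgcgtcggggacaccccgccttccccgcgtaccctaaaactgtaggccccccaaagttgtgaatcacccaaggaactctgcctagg
Bcl11b: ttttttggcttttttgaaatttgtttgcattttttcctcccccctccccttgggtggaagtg
Tbr1: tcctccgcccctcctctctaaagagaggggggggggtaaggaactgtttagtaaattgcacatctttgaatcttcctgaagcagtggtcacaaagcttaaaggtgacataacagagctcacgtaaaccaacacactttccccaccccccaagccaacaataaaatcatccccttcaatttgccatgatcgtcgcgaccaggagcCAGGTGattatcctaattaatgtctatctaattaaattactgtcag
Tle4: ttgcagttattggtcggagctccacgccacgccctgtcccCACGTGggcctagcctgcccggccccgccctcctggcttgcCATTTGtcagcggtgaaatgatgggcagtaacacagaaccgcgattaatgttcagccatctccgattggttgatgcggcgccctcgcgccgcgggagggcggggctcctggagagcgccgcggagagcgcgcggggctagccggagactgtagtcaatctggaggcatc
A match describes the letters and is not a binding site, and no match says only that the word is not in that window. Binding was not measured in this series.

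Between KO and WT, 3 of the 8 members were higher (Fezf2, Tle4 and Etv1), 2 were lower (Foxp2 and Bcl11b) and 3 were not called (Tbr1, Ldb2 and Crym). Calls are at an adjusted p of 0.05 in edgeR's quasi-likelihood test over 15271 genes, with p-values adjusted over all of them. Over all genes tested 26.5% were called higher and 26.3% lower, so a call did not by itself set a member apart from other genes. Only Fezf2 and Foxp2 were also past a 1.5-fold change, as were 22.4% of all genes. The median log2 fold change was 0.14 over the 8 members and 0.01 over all genes tested. The CPM ranges of the 3 KO and the 3 WT libraries did not overlap for 5 members, as for 62.7% of all genes.

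Between Het and WT, 3 members were higher (Fezf2, Tle4 and Crym) and 2 lower (Foxp2 and Bcl11b), against 22.5% of all genes higher and 23.4% lower. Fezf2, Crym and Foxp2 were past 1.5-fold, as were 16.5% of all genes, and the ranges did not overlap for 6 members, as for 53.6% of all genes. Etv1 was the 1 member called between KO and Het, higher in KO, against 8.30% of all genes higher and 8.44% lower. The KO and Het ranges did not overlap for 3 members (Fezf2, Etv1 and Crym), as for 33.4% of all genes. The 2 comparisons with WT use the same WT libraries, so their values stand side by side and are not independent of each other.

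**Figure D1:**
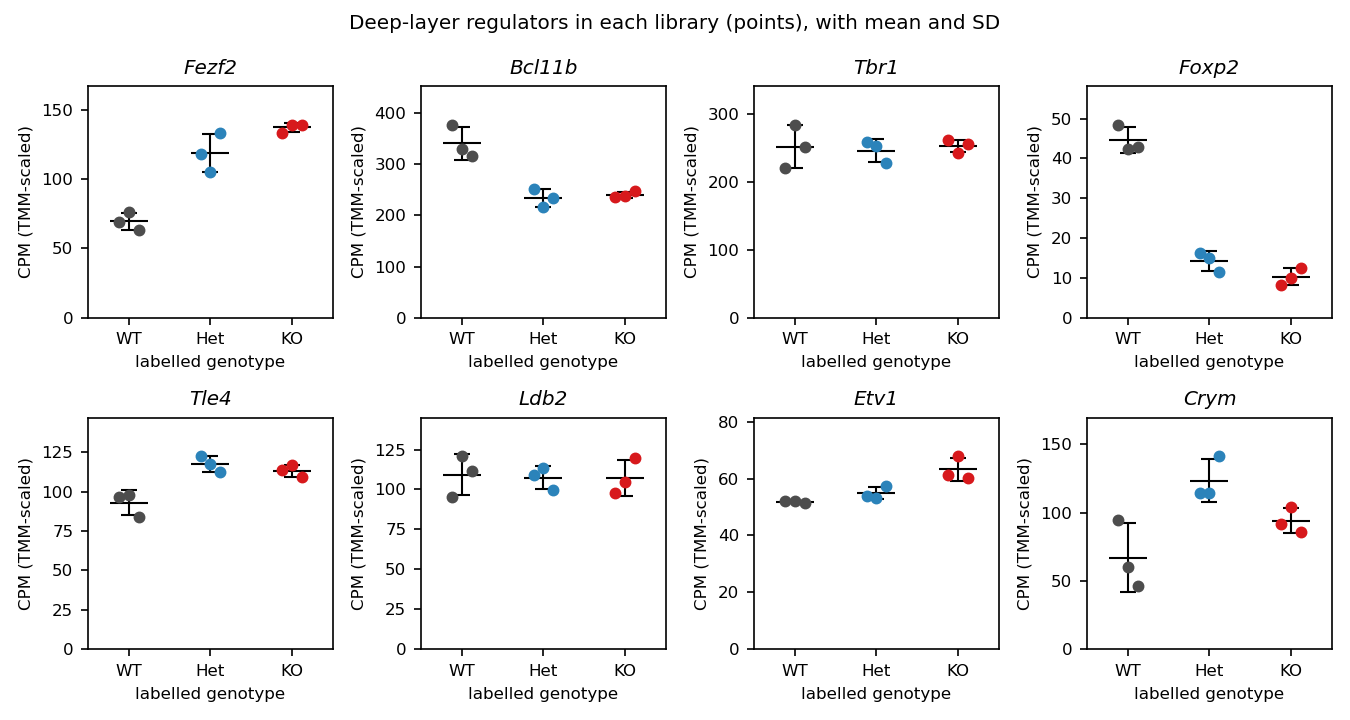
TMM-scaled CPM of each of the 8 members (panels) by labelled genotype; points are libraries, the wide bar is the mean and the whiskers the SD of 3 libraries. Every Het and KO library lies above every WT library for Fezf2 and Tle4 and below every WT library for Foxp2 and Bcl11b, while the 3 genotypes overlap for Tbr1 and Ldb2.

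**Figure D2:**
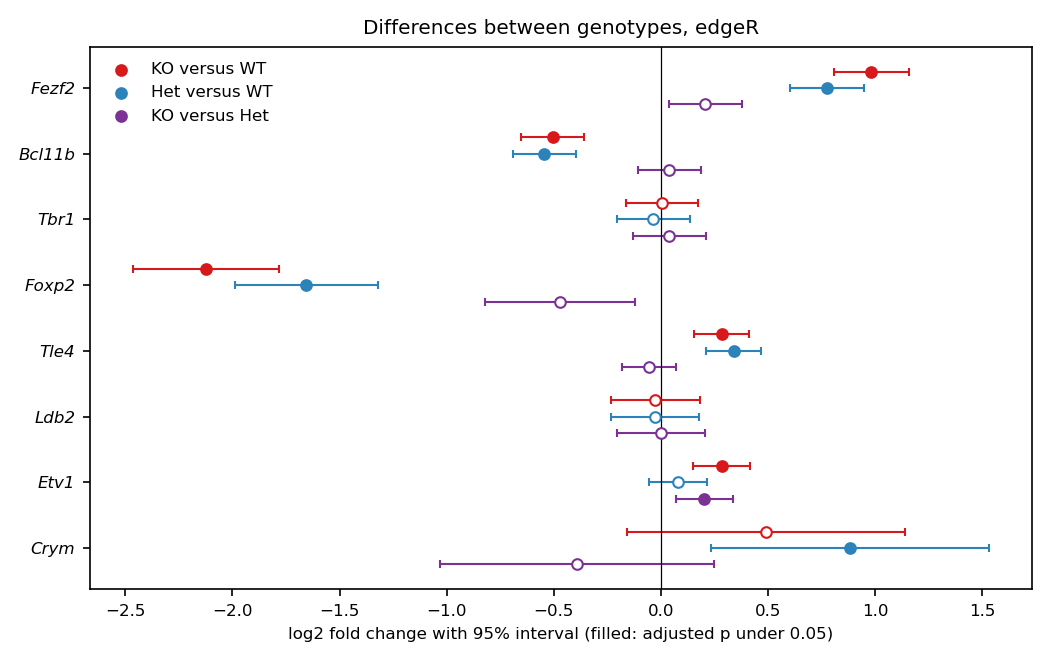
Log2 fold change of each member in the 3 comparisons with its 95% interval, edgeR fit of all 9 libraries; filled points passed an adjusted p of 0.05. Foxp2 (-2.12 in KO against WT) and Fezf2 (0.98) lie farthest from 0 in that comparison, and Etv1 has the 1 filled point for KO against Het.

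Fezf2 (ENSMUSG00000021743, chromosome 14, 12342094 to 12348189, minus strand, mm10), the subcerebral specification factor, was higher in both mutant groups. Its levels were 68.8, 76.1 and 63.4 CPM in WT, 118.1, 105.3 and 133.1 CPM in Het and 133.3, 139.2 and 139.3 CPM in KO. All 6 mutant libraries were above all WT libraries, and the KO libraries lay closer together than those of either other genotype, with the lowest just above the highest Het library. The level in KO was 1.98-fold that in WT (log2 fold change 0.98, SE 0.08, adjusted p = 2.9e-07) and the level in Het 1.71-fold (0.78, SE 0.08, adjusted p = 4.8e-06). KO exceeded Het by a log2 fold change of 0.21 (SE 0.08, adjusted p = 0.094), which passed the threshold without Het replicate 3 (0.29, adjusted p = 0.015) and with no filter on low counts (0.21, adjusted p = 0.013). The Het change was 78.9% of the KO change on the log2 scale. Of 12 markers of radial glia and cycling cells, 7 were higher and 2 lower in KO than WT (median 0.65). In Het, 7 were higher and 3 lower (median 0.38). Their summed level was 1466 to 1537 CPM in WT, 1279 to 1397 in Het and 1416 to 1518 in KO. The part of these cells in the Fezf2 level was not tested.

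Tle4 (ENSMUSG00000024642, chromosome 19, 14448150 to 14598051, minus strand), the Groucho corepressor, was also higher, by a smaller factor. It was counted at 96.9, 98.2 and 84.0 CPM in WT, 123, 118 and 113 in Het and 114, 117 and 109 in KO. Het and KO libraries overlapped each other and were all above WT. KO exceeded WT by 0.28 on the log2 scale (SE 0.06, adjusted p = 8.5e-04), and Het exceeded WT by 0.34 (SE 0.06, adjusted p = 2.5e-04). Fezf2 rose further, and the ratio of Tle4 to Fezf2 in FPKM (fragments per kilobase of gene and per unit of library size, which allows genes to be compared) went from 0.679 ± 0.031 in WT to 0.507 ± 0.071 in Het and 0.418 ± 0.018 in KO (SD, n = 3).

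Bcl11b (ENSMUSG00000048251, chromosome 12, 107910403 to 108003602, minus strand), the zinc finger factor that acts downstream of Fezf2, moved the other way. Levels of 378, 331 and 315 CPM were counted in WT, 253, 216 and 234 in Het and 237, 238 and 247 in KO. Every mutant library was below every WT library, and Het and KO overlapped. The level fell by 0.50 on the log2 scale in KO (SE 0.07, adjusted p = 1.2e-05), to 0.705 of the WT level, and fell by 0.54 in Het (SE 0.07, adjusted p = 9.0e-06). The KO against Het difference was 0.04 (95% interval -0.11 to 0.19).

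The ratio of Fezf2 to Bcl11b within a library does not depend on how libraries are scaled. In FPKM it was 0.356, 0.450 and 0.393 in the WT libraries, 0.914, 0.952 and 1.12 in Het, and 1.101, 1.145 and 1.102 in KO. Bcl11b thus exceeded Fezf2 per unit length in all WT libraries, and the 2 were near parity in all mutant libraries. The ratio of Bcl11b to Tbr1 was 0.576 ± 0.12 in WT, 0.399 ± 0.037 in Het and 0.398 ± 0.016 in KO (SD, n = 3).

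Foxp2 (ENSMUSG00000029563, chromosome 6, 14901349 to 15441977, plus strand), the forkhead repressor of layer 6, had the largest change of the 8 members. The libraries held 48.5, 42.4 and 42.9 CPM in WT, 16.3, 14.9 and 11.4 in Het and 8.30, 9.83 and 12.5 in KO. All mutant libraries lay far below all WT libraries, and Het and KO overlapped. The level was 4.36-fold lower in KO than WT (log2 fold change -2.12, SE 0.15, adjusted p = 6.9e-07) and 3.15-fold lower in Het (-1.65, SE 0.15, adjusted p = 6.9e-06). KO was below Het by -0.47 (SE 0.16, adjusted p = 0.068). That difference passed the threshold without Het replicate 3 (-0.61, adjusted p = 0.015), without KO replicate 3 (-0.65, adjusted p = 0.0066), in DESeq2 (-0.48, adjusted p = 0.0082) and with no filter on low counts (-0.47, adjusted p = 0.018).

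Markers of striatal projection neurons moved with Foxp2 and Bcl11b. Of 18 such markers (members left out), 17 were lower in KO and all 18 in Het, with medians of -2.62 and -2.88. Summed over the list they stood at 659 to 691 CPM in WT, 213 to 236 in Het and 221 to 241 in KO. Isl1, a LIM-homeodomain factor of striatal precursors, had 315, 253 and 268 counts in WT, at most 2 in a Het library and at most 4 in a KO library, and Scn4b, a sodium channel subunit, was under 0.5 CPM in every mutant library, as was Gpr6 in every Het library. Of 15 interneuron markers 12 were lower and 1 higher in KO, and their sum went from 927 to 991 CPM in WT to 703 to 782 in Het and 655 to 721 in KO. Markers of astrocytes, the oligodendrocyte lineage and microglia were lower as well. In KO this held for 5 of 6 astrocyte markers (sum 593 to 650 CPM in WT, 269 to 302 in Het, 203 to 238 in KO). It also held for 5 of 5 of the oligodendrocyte lineage (326 to 354, 174 to 180 and 171 to 203) and 5 of 6 of microglia (88.1 to 97.9, 45.6 to 49.4 and 50.5 to 52.3). Markers of radial glia and cycling cells, given above, were mixed, with 7 higher and 2 lower in KO. Their sum overlapped between WT and KO, and was lower in Het (1279 to 1397 CPM) than in WT (1466 to 1537 CPM). The part of any of these cells in the Foxp2 and Bcl11b values was not tested, and in bulk tissue fewer cells of a type and less RNA per cell cannot be told apart.

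**Figure D3:**
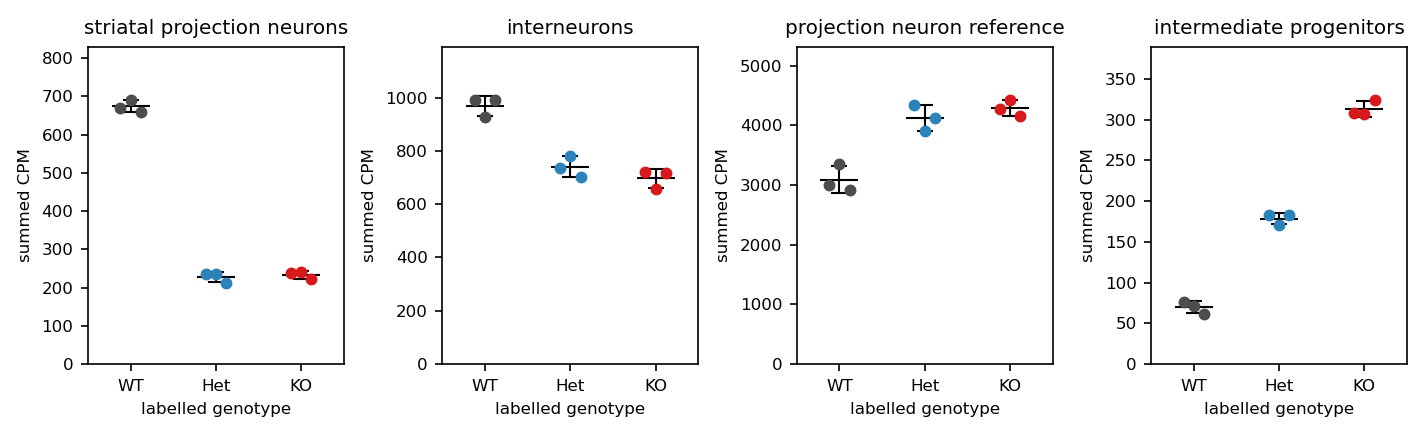
Summed CPM of 4 marker lists by labelled genotype; points are libraries, bars the mean and SD of 3 libraries. Striatal markers fall from 659 to 691 CPM in WT to at most 241 CPM in the mutant libraries, while projection neuron reference genes and intermediate progenitor genes are higher in Het and KO than in WT.

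Tbr1 (ENSMUSG00000035033, chromosome 2, 61802930 to 61814114, plus strand), the corticothalamic T-box factor, did not pass the test in any comparison. It was counted at 221, 285 and 252 CPM in WT, 259, 253 and 228 in Het and 261, 243 and 256 in KO. The ranges overlap throughout, and the WT libraries span those of both mutants. The log2 difference was 0.01 for KO against WT (95% interval -0.16 to 0.17, adjusted p = 0.96) and -0.03 for Het against WT (-0.20 to 0.13, adjusted p = 0.75). Tbr1 is also expressed by Cajal-Retzius cells and by young neurons leaving the intermediate progenitor stage. Of 8 Cajal-Retzius markers 7 were higher in KO (sum 477 to 540 CPM in WT, 704 to 778 in KO, 768 to 990 in Het), as were all 7 tested of 8 intermediate progenitor markers (61.9 to 76.0 CPM in WT, 170 to 183 in Het, 307 to 324 in KO). Their part in the Tbr1 level was not tested.

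Ldb2 (ENSMUSG00000039706, chromosome 5, 44472132 to 44799680, minus strand), the LIM-domain cofactor, was the other member with no call in any comparison. The libraries held 95.6, 121 and 112 CPM in WT, 109, 113 and 99.4 in Het and 97.7, 105 and 120 in KO. The 3 genotypes overlap over nearly their whole range. The log2 difference was -0.03 for KO against WT (95% interval -0.23 to 0.18, adjusted p = 0.84) and -0.03 for Het against WT (-0.23 to 0.18, adjusted p = 0.84). GENCODE M21 places Gm43505 and Gm43507 on the opposite strand within Ldb2. They were not analysed here, and no other member overlaps an annotated gene on the opposite strand.

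Etv1 (ENSMUSG00000004151, chromosome 12, 38779380 to 38870484, plus strand), the ETS factor of layer 5, was higher in KO than in either other genotype. It was counted at 52.1, 52.0 and 51.5 CPM in WT, 54.0, 53.3 and 57.3 in Het and 61.3, 67.9 and 60.4 in KO. The 3 genotypes do not overlap, in the order WT, Het, KO, although the gap between WT and Het is small. The log2 fold change was 0.28 for KO against WT (SE 0.06, adjusted p = 0.0012), 0.08 for Het against WT (SE 0.06, adjusted p = 0.32) and 0.20 for KO against Het (SE 0.06, adjusted p = 0.036). The last call was lost without Het replicate 1 (0.18, adjusted p = 0.089), Het replicate 2 (0.17, adjusted p = 0.145), KO replicate 1 (0.22, adjusted p = 0.069) or KO replicate 2 (0.15, adjusted p = 0.21). It was also lost with the replicate block, library totals, limma on log2(FPKM + 1) and only the genotypes compared, with adjusted p = 0.062, 0.051, 0.051 and 0.065.

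Crym (ENSMUSG00000030905, chromosome 7, 120186380 to 120202111, minus strand), the thyroid hormone binding protein of corticospinal neurons, varied more between the WT libraries than any other member did. It was counted at 94.7, 60.04 and 45.9 CPM in WT, 114, 114 and 141 in Het and 91.8, 104 and 86.1 in KO. Het libraries were above all others, and WT replicate 1 lay inside the KO range. The coefficient of variation was 37.6% in WT, against at most 12.7% for any other member. It was 12.7% in Het and 9.75% in KO, where Foxp2 varied more (17.6% and 20.9%), as did Ldb2 in KO (10.5%). Het exceeded WT by 0.88 (SE 0.27, adjusted p = 0.037), and KO against WT was 0.49 (SE 0.27, adjusted p = 0.17). The Het call was held without WT replicate 1 (adjusted p = 7.0e-04) and lost without any other single library (0.67 to 0.95, adjusted p from 0.055 to 0.105). Without WT replicate 1, KO against WT was 0.82 with adjusted p = 0.0035. WT replicate 1 also had the most Tcf7l2, a thalamic and midbrain factor, at 12.9 CPM against 4.01 and 5.34 in the other WT libraries and 2.66 to 3.75 in the mutants. Tcf7l2 is 1 of 5 thalamic markers listed, whose sum, Tcf7l2 included, was 79.1, 46.9 and 62.0 CPM in WT replicates 1, 2 and 3. That sum was 46.1 to 68.4 CPM in Het and 60.3 to 65.7 CPM in KO, so it differed less between libraries than Tcf7l2 did. The part of other tissue in the Crym level was not tested. With only Het and KO in the fit, Crym was lower in KO than Het (-0.40, adjusted p = 0.021), and with all libraries it was not called (-0.39, adjusted p = 0.39).

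Whether Het levels lay off the log2 midpoint of WT and KO was tested for each member in the same fit. Fezf2 lay 0.28 above the midpoint (SE 0.07, adjusted p = 0.0089), Tle4 0.20 above (SE 0.05, adjusted p = 0.011), Bcl11b at -0.29 (SE 0.06, adjusted p = 0.0023) and Foxp2 at -0.59 (SE 0.14, adjusted p = 0.0095). In these 4 the Het level was thus nearer to KO than to WT. Off the midpoint in either direction were thus 4 of 8 members, against 24.5% of all genes, a share that includes genes whose Het level was nearer to WT. Its base of 15271 genes also holds 7210 that were not called between KO and WT. Of 15 other layer 5 genes 2 lay above the midpoint and 4 below, and of 15 other layer 6 genes 5 above and 1 below. Of 16 upper-layer genes 5 lay above and 1 below, and of 18 striatal markers 15 lay below. This trait was therefore not particular to the members. Etv1 was at -0.06 (SE 0.05, adjusted p = 0.46), Tbr1 at -0.04 and Ldb2 at -0.01 without a call. Crym was at 0.64 (SE 0.22, adjusted p = 0.092), called without WT replicate 1 (0.81, adjusted p = 0.0031) and in DESeq2 (0.64, adjusted p = 0.037).

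Per unit gene length, Tbr1 had the highest level in all genotypes, at 131 ± 15 FPKM in WT, 133 ± 8.3 in Het and 135 ± 5.7 in KO (SD, n = 3). In WT the order below it was Bcl11b (74.3 ± 7.9), Ldb2 (43.1 ± 4.5), Crym (32.3 ± 13), Fezf2 (29.5 ± 2.6), Etv1 (27.6 ± 0.45), Foxp2 (22.2 ± 2.0) and Tle4 (20.03 ± 1.8 FPKM). Neighbours from Ldb2 down to Etv1, and Foxp2 with Tle4, overlapped between libraries. In KO the order was Fezf2 (59.9 ± 2.2), Bcl11b (53.7 ± 2.1), Crym (46.4 ± 4.0), Ldb2 (43.5 ± 5.2), Etv1 (34.4 ± 2.0), Tle4 (25.004 ± 0.54) and Foxp2 (5.23 ± 1.2 FPKM), where Crym and Ldb2 alone overlapped. In Het, Crym (61.6 ± 8.2), Bcl11b (52.7 ± 4.4) and Fezf2 (52.4 ± 6.6) overlapped, and Foxp2 was last at 7.32 ± 1.3 FPKM. Fezf2 thus moved from the middle of the order in WT to just below Tbr1 in KO.

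**Figure D4:**
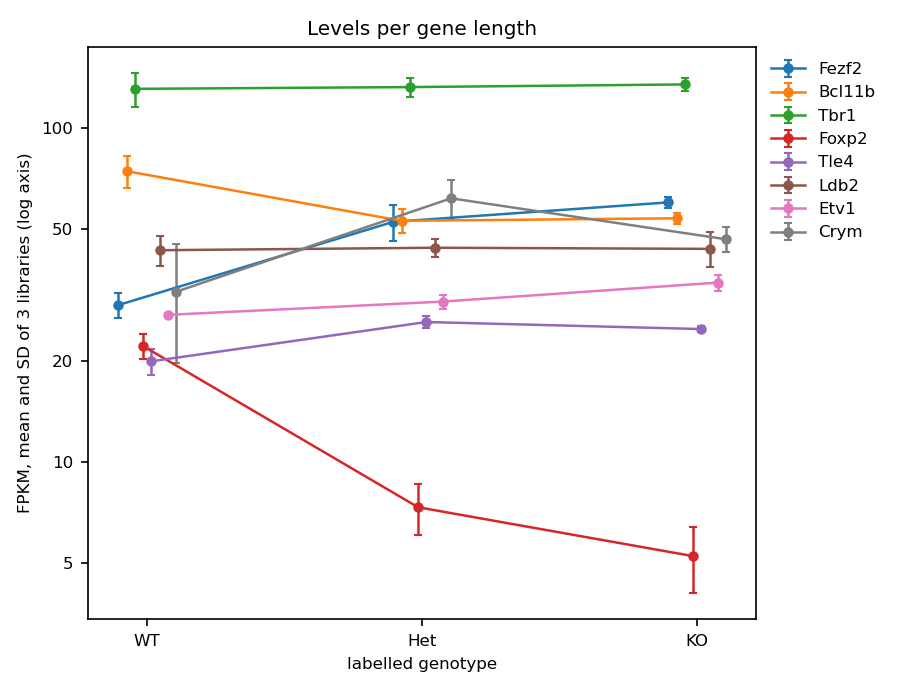
FPKM of the 8 members by labelled genotype on a log axis, mean and SD of 3 libraries, shifted sideways for legibility. Tbr1 stays on top near 131 to 135 FPKM, Fezf2 and Bcl11b cross between WT and KO, and Foxp2 goes from 22.2 to 5.23 FPKM.

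The members were also set against other projection neuron genes of the same library. The 8 projection neuron genes named above as the tissue check, used here as the reference, were themselves higher in KO than WT in 6 cases and lower in 1, with a mean log2 CPM of 7.44 ± 0.056 in WT, 7.85 ± 0.056 in Het and 7.84 ± 0.0057 in KO (SD, n = 3). Relative to them, the KO minus WT difference in log2 CPM was 0.58 for Fezf2, -0.12 for Tle4, -0.12 for Etv1, -0.39 for Tbr1, -0.43 for Ldb2, -0.91 for Bcl11b, -2.54 for Foxp2 and 0.14 for Crym. For Fezf2, Tbr1, Ldb2, Bcl11b and Foxp2 the exact two-sided permutation p was 0.10, the smallest that 3 against 3 allows, and 0.18 after adjustment over the 24 differences computed. No difference of this kind can pass the threshold in this design. Tle4 and Etv1, which were higher in KO as CPM, had negative differences on this scale (exact permutation p = 0.2 for each). Their direction thus differed between CPM and this 1 reference, which was itself higher in KO. The pan-neuronal markers, with a median log2 fold change of -0.25 in KO against WT, were not used as a reference.

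Other genes of the deep layers did not share 1 direction. Of 15 further layer 5 genes, 6 were higher and 5 lower in KO than WT (median 0.16), 4 higher and 5 lower in Het (median -0.16), and 6 higher and 3 lower in KO than Het. Npr3, a clearance receptor for natriuretic peptides, stood at 9.98 ± 1.6 CPM in WT, 17.99 ± 3.3 in Het and 25.7 ± 0.65 in KO (SD, n = 3), and was higher in KO than WT by 1.37 on the log2 scale (SE 0.13, adjusted p = 5.7e-07). Chst8, a sulfotransferase, was higher too (1.27, SE 0.11, adjusted p = 4.4e-08). Rbp4, a retinol carrier, was lower, at 2.06 ± 0.11 CPM in WT, 0.344 ± 0.088 in Het and 0.177 ± 0.093 in KO (adjusted p = 4.5e-07 for KO against WT).

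Of 15 further layer 6 genes, 9 were lower and 5 higher in KO than WT (median -0.61), 6 lower and 4 higher in Het (median -0.13), and 6 lower and 1 higher in KO than Het. Their summed level overlapped between genotypes, at 1858 to 1986 CPM in WT, 1897 to 2127 in Het and 1844 to 1902 in KO. Syt6, a synaptotagmin of corticothalamic neurons, went from 66.3 ± 5.6 CPM in WT to 38.0 ± 2.9 in Het and 15.4 ± 1.7 in KO (SD, n = 3), a log2 fold change of -2.10 (SE 0.09, adjusted p = 1.5e-11) for KO against WT. Lpl, lipoprotein lipase, was at -1.89 (SE 0.17, adjusted p = 3.5e-05). Ntsr1, the neurotensin receptor that marks layer 6 corticothalamic neurons, was at 84.7 ± 9.8 CPM in WT, 74.1 ± 2.6 in Het and 37.9 ± 2.8 in KO (SD, n = 3). Ntsr1 was called for KO against WT (-1.16, SE 0.08, adjusted p = 5.8e-09) and KO against Het (-0.97, SE 0.08, adjusted p = 4.0e-07) and not for Het against WT (-0.19, SE 0.08, adjusted p = 0.054).

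**Figure D5:**
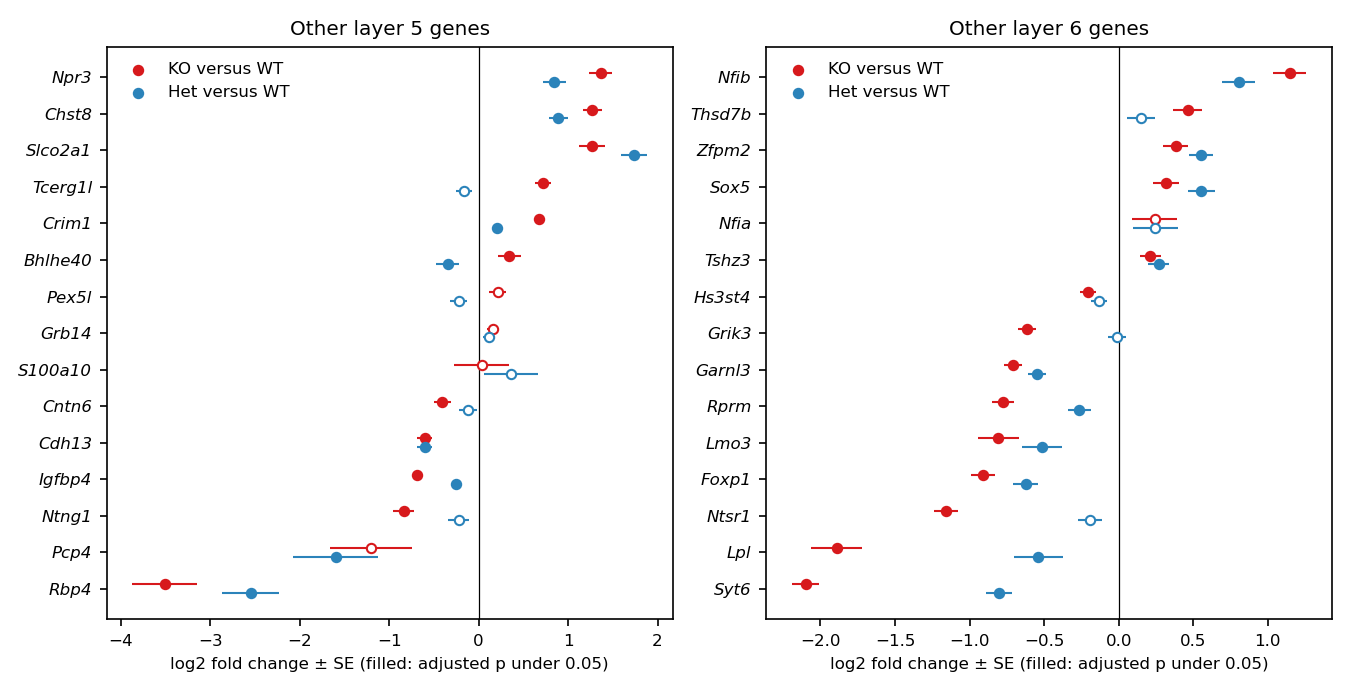
Log2 fold change with SE of 15 further layer 5 genes (left) and 15 further layer 6 genes (right), KO against WT in red and Het against WT in blue; filled points passed an adjusted p of 0.05. Layer 5 genes spread to both sides (6 higher, 5 lower in KO), and more layer 6 genes lie on the lower side (9 lower, 5 higher in KO).

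Genes of upper-layer and callosal neurons, whose programme opposes that of Fezf2 and Bcl11b, went both ways. Of 16, 5 were higher and 8 lower in KO than WT (median -0.19) and 5 higher and 5 lower in Het. Plxnd1, a semaphorin receptor, was at -1.90 (SE 0.08, adjusted p = 3.9e-11), Rorb, a nuclear receptor of layer 4, at -1.36 (SE 0.21, adjusted p = 7.3e-04) and Pou3f2, a POU factor, at 1.21 (SE 0.16, adjusted p = 5.8e-04).

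Relatives of the members were examined as a further list. Of 12 listed, 11 were tested, with 3 higher and 5 lower in KO than WT. Eomes, the T-box relative of Tbr1 that marks intermediate progenitors, rose from 15.9 ± 3.4 CPM in WT to 59.7 ± 3.9 in Het and 86.6 ± 8.1 in KO (SD, n = 3; adjusted p = 1.3e-07 for KO against WT), while Tbr1 was not called. Foxp1, a forkhead relative that is also abundant in striatum and stands on the layer 6 list too, fell as Foxp2 did, by 0.91 on the log2 scale in KO (SE 0.08, adjusted p = 5.3e-07) and by 0.62 in Het (SE 0.08), and Foxp4 fell by 0.20 in KO (SE 0.05, adjusted p = 0.0036). Bcl11a, the paralogue of Bcl11b, was at -0.03 (SE 0.06, adjusted p = 0.71) in KO.

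Among the ETS relatives of Etv1, Etv5 was at -0.69 (SE 0.07, adjusted p = 6.5e-07) and Etv4 at -0.53 (SE 0.09, adjusted p = 7.2e-05) in KO against WT, the opposite direction to Etv1. In Het, Etv5 was at 0.09 (SE 0.07, adjusted p = 0.30) and Etv4 at -0.57 (SE 0.09, adjusted p = 5.4e-05). Of the Groucho relatives of Tle4, Tle1 was at -0.02 (SE 0.06, adjusted p = 0.85), Tle2 at 0.49 (SE 0.13, adjusted p = 0.0043) and Tle3 at -0.39 (SE 0.10, adjusted p = 0.0069). Ldb1, the partner paralogue of Ldb2, was higher by 0.29 (SE 0.06, adjusted p = 4.1e-04). Of 10 LIM-domain proteins that could bind Ldb2, 5 were higher and 4 lower in KO, among them Lhx1 (1.36, SE 0.25, adjusted p = 2.0e-04) and Lhx5 (1.05, SE 0.21, adjusted p = 8.0e-04), both also on the Cajal-Retzius list, and Isl1, given above.

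Reported targets of these factors were examined as well. Slc17a7, the vesicular glutamate transporter that Fezf2 is known to induce, fell while Fezf2 rose, from 213 ± 4.9 CPM in WT to 108 ± 0.80 in Het and 62.5 ± 5.1 in KO (SD, n = 3; adjusted p = 3.5e-13 for KO against WT). Ephb1, an Eph receptor that Fezf2 also induces, rose in KO (0.48, SE 0.05, adjusted p = 1.3e-06) and was not called in Het (0.13, SE 0.05, adjusted p = 0.067). Reln, the secreted guidance protein reported as a Tbr1 target, rose in KO (0.52, SE 0.08, adjusted p = 1.4e-04) and in Het (0.81, SE 0.08, adjusted p = 4.8e-06), and is itself on the Cajal-Retzius list. Of the 7 listed targets 6 were tested, with 3 higher and 1 lower in KO than WT.

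Genes with the profile most like each member over the 9 libraries were ranked by the root mean square difference of centred log2 CPM among 12451 genes. For Foxp2 no gene came within 0.1, and the nearest were A230052G05Rik (0.130) and Gpr149 (0.178). For Fezf2 there were 11 genes within 0.1, led by Myt1 (0.0703) and Kifc1 (0.0735), and for Bcl11b 74, led by Tns3 (0.0517) and Prkcb (0.0578). For Crym the nearest was Dcc (0.0924), the netrin receptor, and it was the 1 gene within 0.1. Tbr1, Tle4, Ldb2 and Etv1, whose levels varied less between genotypes, had 471, 395, 132 and 705 such genes, led by Lap3 (0.0458), Wapl (0.0378), Smug1 (0.0596) and Ctnnd2 (0.0340).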

How the data were processed

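RNA of 9 libraries was analysed. The deposited tables hold whole read counts and FPKM values for each gene. Per the submitters' processing notes the build was mm10, and HTSeq 0.6.1, Bowtie2 2.0.6, DESeq 1.10.1 and TopHat2 2.0.9 are named with no role. The deposited FPKM values equal counts divided by 1 length per gene and by the library total, so they are no second measurement. Use of strand and handling of multi-mapped reads: not given in the sources used here. Symbols came from a GENCODE M21 table (40254 genes matched).

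Counts were analysed with edgeR 4.0.16 in R 4.3.3: filterByExpr (minimum count 10, total 15), which kept 15271 genes with 99.9% of counts, TMM factors, and robust quasi-likelihood dispersions, fitted by genotype over all 9 libraries (6 residual degrees of freedom), with Benjamini-Hochberg adjustment over all genes. SE is the log2 fold change over the square root of F, and intervals are 95%. Log2 CPM used a prior count of 2. The procedure was tested on simulated counts, drawn with the spread fitted to these data and with few genes changed. That test does not cover data in which as many genes were called as here. Alternatives used DESeq2 1.42.0, limma 3.58.1, other scaling and filters, a replicate block and left-out libraries.

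The members, gene lists, rule for named genes and tests were chosen with earlier results of these data known. The rule named all members, up to 3 called genes with the largest change per list, relatives of the members and the 2 genes with the nearest profile, of which the first is printed where several members are listed. No lists were adjusted on their own. Some results on single genes are not reported here.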

Additional observations from a re-analysis of the deposited data

How the results depend on the processing

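The calls of Fezf2, Bcl11b, Foxp2 and Tle4 against WT, and of Etv1 for KO versus WT, kept their direction and passed the threshold under all 19 alternatives run for each comparison, and none of these values was reversed. Set against the 8 projection neuron genes, however, the KO minus WT differences of Tle4 and Etv1 were -0.12 each, against 0.29 and 0.28 without that reference. Over those alternatives KO versus WT ranged from 0.92 to 1.06 for Fezf2, from -0.56 to -0.43 for Bcl11b and from -2.30 to -1.91 for Foxp2. When 1 library was left out, 5 to 6 members were called between KO and WT, and 4 to 5 between Het and WT. For KO versus Het it was 1, but 0 with library totals, with limma on log2(FPKM + 1) and with the replicate block, 2 with DESeq2, 3 with no filter on low counts, and from 0 to 3 when 1 library was left out. The number of all genes called for KO versus Het was 2556. With 1 library left out it ranged from 1432 (without KO replicate 2) to 2561, with 1467 without KO replicate 1, and under the other alternatives from 2166 to 2869. Limma on log2(FPKM + 1), whose pseudocount shrinks low genes, gave 2075, 1415 and 331 genes past 1.5-fold for KO versus WT, Het versus WT and KO versus Het, against 3420, 2518 and 735, and 309 against 777 for Het off the midpoint. Same-numbered libraries of 2 genotypes deviated together with correlations from -0.11 to 0.08, so the numbers were not taken as pairs. With the replicate block the Het versus WT call of Crym (0.92, adjusted p = 0.074) and the KO versus Het call of Etv1 (0.20, adjusted p = 0.062) were lost, and no other member's call changed. The Crym call was also lost with only the genotypes compared (0.88, adjusted p = 0.095). The causes of these changes were not tested. The lowest count of a member was 238 (Foxp2), and the effect of depth was not tested.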

Other observations

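Fezf1, the close relative of Fezf2 with a role in forebrain patterning and the olfactory system, was present in some libraries and nearly absent in others of the same label. It had 135, 3 and 157 counts in the WT libraries, 1, 218 and 2 in Het, and 3, 0 and 0 in KO. The libraries with counts were WT replicates 1 and 3 and Het replicate 2, so its presence did not follow genotype, and no comparison was called (KO versus WT adjusted p = 0.099, edgeR).

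Subplate markers, from the oldest neurons below layer 6, split between the mutants in their calls and medians but not in their summed level. Of 8, 4 were higher and 1 lower in KO than WT (median 0.55), whereas 1 was higher and 3 lower in Het (median -0.24). Between KO and Het, 4 were higher and 1 lower. Their summed level was 158 to 164 CPM in WT, 135 to 145 in Het and 131 to 146 in KO, so it was lower than in WT in both mutants.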
